A study of Mus musculus with 2 samples.

Results

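The 42 autosomal collagen genes were examined for binding of lysine-specific demethylase 1 (LSD1), the chromatin enzyme encoded by Kdm1a that removes methyl groups from histone lysines within corepressor complexes. Members were the protein-coding genes of the GENCODE M21 annotation on chromosomes 1 to 19 of mm10 whose symbol is Col, a number, the letter a and a number, 42 of 20722 autosomal protein-coding genes with an annotated coding start. They comprised 11 fibrillar genes, 6 basement membrane genes (type IV, XV and XVIII chains) and 25 others, and the 2 collagen genes on chromosome X lie outside the rule. The data are 1 list of LSD1 peaks from mouse primary brown adipocytes, heat-producing fat cells of strain C57BL/6 N with genotype given as control, passage 2 to 3, made with a home-made LSD1 antibody. An input library without antibody was made from the same kind of cells, and its values are not analysed here. Cells grown on collagen-coated dishes in 20% fetal bovine serum received insulin (850 nM), dexamethasone (1 µM), rosiglitazone (1 µM), indomethacin (125 nM), T3 (1 nM) and isobutylmethylxanthine (500 µM) to induce differentiation, and were fixed for 5 min on day 10. Each kind of library was made once and the peaks measure no RNA, so neither the spread between cultures nor the expression of collagens or of brown fat markers could be assessed.

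Collagens are the chief structural proteins of the extracellular matrix, each a triple helix of alpha chains. Fibrillar chains (types I, II, III, V, XI, XXIV and XXVII) build the tensile fibres of skin, bone, tendon and the stroma of fat, and type IV chains form the sheet of the basement membrane that wraps every adipocyte and vessel. Type VI microfilaments are abundant around fat cells, fibril-associated collagens with interrupted triple helices (FACIT) decorate fibril surfaces, and the transmembrane collagens stand in the plasma membrane. Fibroblasts and adipocyte precursors are the usual makers of fibrillar collagen, and its genes are typically turned down as adipocytes mature.

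A promoter here is the 1 kb on either side of any coding transcript start, and a gene was called bound if 1 bp or more of a peak fell in it. The gene window reaches from 10 kb upstream of the gene to its end. Each peak carries a score, the authors' own value on a scale not given in the sources used here. Over the 59175 peaks of the list the score had a median of 111 (quartiles 86.7 and 193), the highest 10% began at 391, and values ran from 50.1 to 3224. The family was selected on the promoter and window peaks of this same list, so its counts and scores are descriptions, and no test was made. The genes of a class are not replicates. Shares carry Wilson 95% intervals, which take in counting error alone, and the depth is unknown.

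LSD1 promoter peaks were found at every fibrillar collagen gene and at some of the rest. Of the 42 collagens, 28 (66.7%, 51.6 to 79.0%) had a promoter peak, against 58.2% of all autosomal protein-coding genes. All 11 fibrillar genes had one (100%, 74.1 to 100%), 4 of 6 basement membrane genes did (66.7%, 30.0 to 90.3%), and 13 of 25 others did (52%, 33.5 to 70.0%). Within the others the count was 6 of 9 for FACIT genes, 3 of 6 for the type VI genes, 2 of 3 for the short-chain genes and 1 of 4 for the transmembrane genes. Col7a1, which encodes the anchoring fibrils of skin, had none, and of the unclassed Col26a1 and Col28a1 only Col28a1 had one. With promoters narrowed to 500 bp on either side, 23 collagens were bound (54.8%, against 56.0% of all genes), 8 of them fibrillar. When the peak midpoint had to lie in the promoter, 24 were (57.1%, against 56.5%), 9 of them fibrillar. With peaks in the highest 10% of scores alone, 4 were (9.52%, against 24.0%), 1 of them fibrillar.

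The highest promoter score of the 28 bound members had a median of 226 (quartiles 172 and 291), against 318 (quartiles 159 and 574) for all 12066 bound autosomal genes. Only 4 of the 28 (14.3%), Col5a3, Col8a2, Col6a3 and Col12a1, reached the highest 10% of scores, against 41.3% of all bound genes. By collagen class the median was 193 for fibrillar, 248 for basement membrane and 229 for other collagens. The count of fibrillar genes thus included weak peaks, and 3 of the 11, Col3a1, Col24a1 and Col11a1, lay below the median of the whole list.

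**Figure D1:**
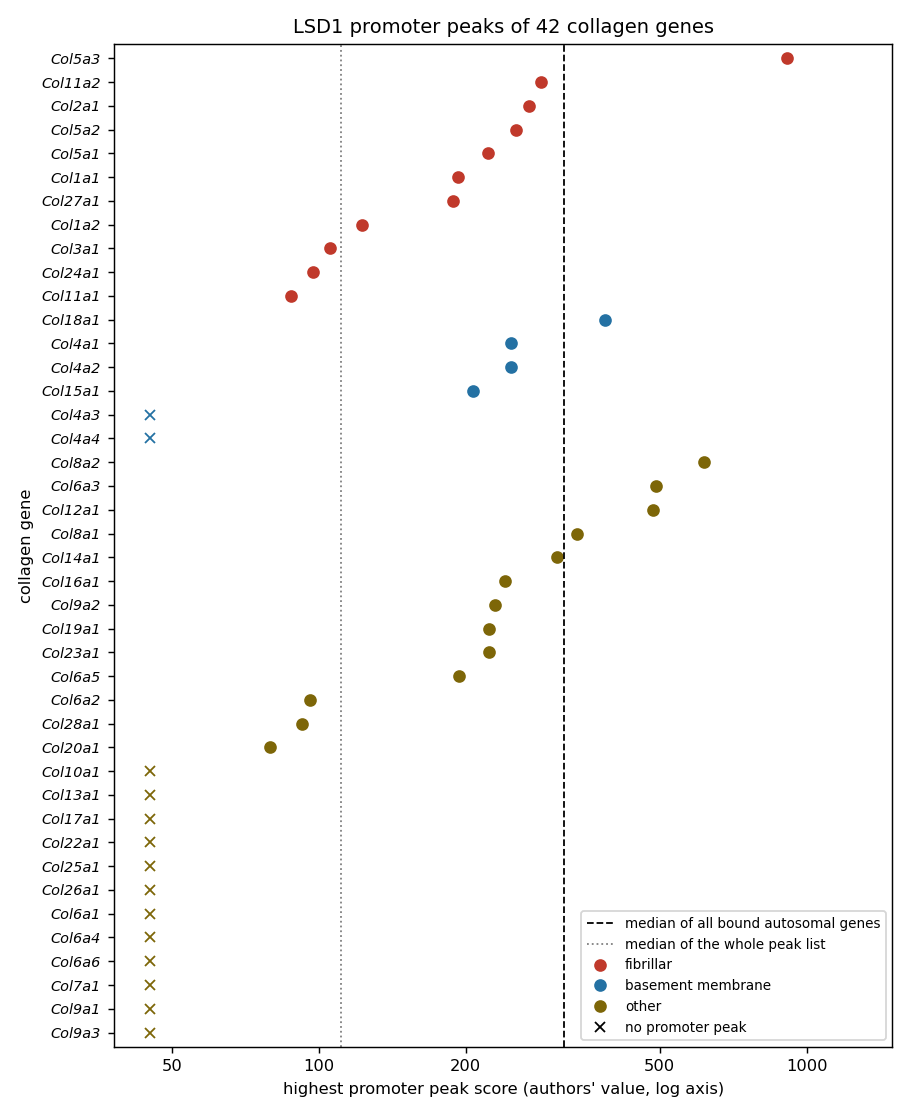
The highest LSD1 promoter score of each collagen gene, on a log axis, coloured by class; crosses mark genes without a promoter peak, and lines mark the median of all bound autosomal genes (318) and of the whole list (111). All 11 fibrillar genes have a point, and those other than Col5a3 (912) lie between 87.9 and 285.

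Promoters rich in the dinucleotide CpG are occupied at high rates in this list, so members were also read by CpG ratio, the observed over expected CpG content in the 1 kb centred on a start, taking the largest value where a gene has several starts. All autosomal genes were divided by it into 3 classes of equal size. Collagen promoters were rather poor in CpG, with a median ratio of 0.46 against 0.63 for all genes, and fibrillar promoters were poorer still, at 0.38. Of the 16 collagens in the low class (ratio below 0.386), 10 had a promoter peak (62.5%, 38.6 to 81.5%), against 11.8% of all genes in that class. Within that class the median ratio was 0.273 in collagens and 0.185 in all genes, so the class does not equalise CpG content. The 10 bound collagens were all 6 fibrillar genes there (Col1a1, Col1a2, Col3a1, Col5a2, Col11a2 and Col24a1) and 4 of 10 others (Col6a3, Col6a5, Col20a1 and Col28a1). Among these, Col3a1, Col24a1, Col20a1 and Col28a1 had scores of only 106, 97.3, 79.5 and 92.3. They were not bound with promoters of 500 bp or with peaks at or above the median score. Shares within this class were not recomputed under those settings. In the middle class 13 of 21 collagens were bound (61.9%), against 71.6% of all genes, and in the high class 5 of 5, against 91.2%. The median score of bound genes, by CpG class from low to high, was 158, 270 and 223 in collagens, against 126, 273 and 397 in all bound genes, so within these classes the wide gap lay in the high class, with 5 collagens. Collagen genes are long (median 110850 bp, against 17596 bp for all genes). Among genes in the low CpG class that were also in the longest of 3 equal classes by length, 7 of 11 collagens had a promoter peak, against 16.2% of all such genes. Col3a1, Col24a1 and Col28a1 were among the 7. The median number of starts per gene was 2 in each of these sets, and no further property was matched.

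**Figure D2:**
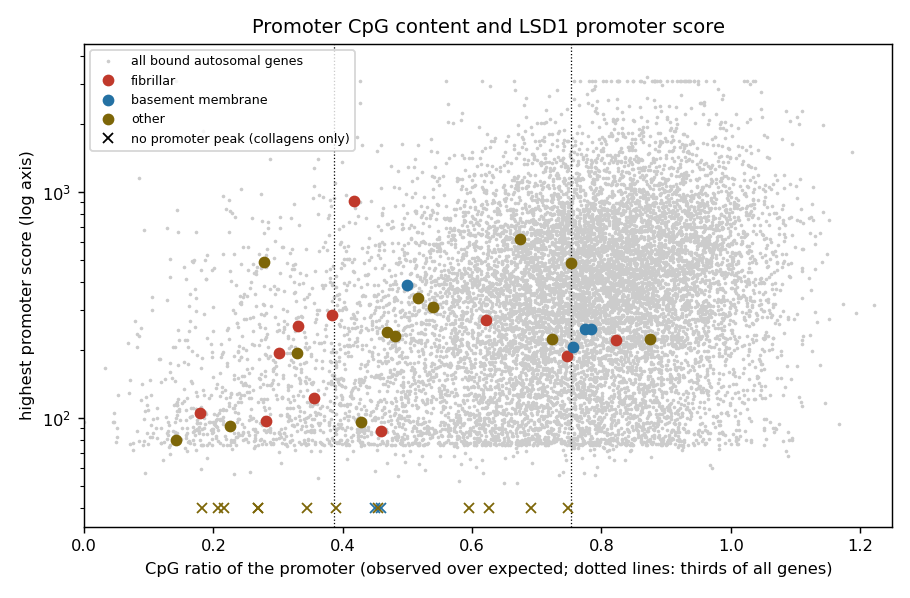
Promoter CpG ratio (horizontal) against the highest promoter score (vertical, log axis) for bound autosomal genes in grey and collagen genes by class; dotted lines divide all genes into 3 equal classes and crosses show collagens without a promoter peak. In the low class, 10 of 16 collagens are bound, against 11.8% of all genes. The median ratio in that class is 0.273 in collagens and 0.185 in all genes. Col3a1, Col24a1, Col20a1 and Col28a1 among the 10 are not bound with promoters of 500 bp. The ratio and the score are each the largest over a gene's starts, so they can come from different starts.

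Collagen promoter peaks also lay beside the start more often than over it. The highest-scoring promoter peak covered a coding start in 10 of the 28 bound members (35.7%), against 82% of all bound autosomal genes. Its midpoint lay a median of 586 bp from the nearest start in collagens, against 170 bp in all bound genes, and it was downstream of the start in 20 of 28 (71.4%), against 51.3%. When any promoter peak of a gene counted, a start was covered in 15 of 28 collagens (53.6%), against 85.8%. In the middle CpG class, the start lay under the highest peak in 4 of 13 collagens (30.8%), against 80.6% of all bound genes. The count was 2 of 5 in the high class, against 87.7%, and 4 of 10 in the low class, against 45.7%, so the wide gap lay outside the CpG-poor genes. Examples of covered starts were Col1a1 (midpoint -6 bp from the start), Col6a3 (6 bp), Col5a2 (66 bp), Col1a2 (-60 bp) and Col12a1 (-141 bp). Examples of peaks set off from the start were Col11a2 (557 bp), Col14a1 (779 bp), Col6a5 (867 bp) and Col8a1 (-714 bp).

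The promoter rule has a sharp edge. The last members inside it were Col28a1, Col11a1 and Col20a1, whose nearest peaks began 777, 855 and 867 bp from a start with scores of 92.3, 87.9 and 79.5. The first outside it were Col9a3 and Col13a1, at 1111 and 1175 bp with scores of 83.1 and 107.

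Among fibrillar genes, Col5a3, a chain of type V collagen, which helps set fibril diameter (chromosome 9, 20770050–20815067, minus strand), had the highest promoter score of any collagen. Its peak at 20813349–20815645 scored 912, spanned 2297 bp and covered the start and the sequence before it, and that score exceeded the highest promoter score of 90.2% of bound autosomal genes. Peaks of 223, 126 and 118 followed at 2195, 4065 and 4575 bp into the gene, and 1 of 267 lay at 20660 bp. The 250 bases before the Col5a3 start, all under the peak of 912, are shown because they are the strongest bound collagen promoter. All sequences are from the GRCm38.p6 assembly as held by RefSeq, 5′ to 3′, with each CpG in capitals, and overlap no annotated exon.
Col5a3, chr9:20815068-20815317, minus strand: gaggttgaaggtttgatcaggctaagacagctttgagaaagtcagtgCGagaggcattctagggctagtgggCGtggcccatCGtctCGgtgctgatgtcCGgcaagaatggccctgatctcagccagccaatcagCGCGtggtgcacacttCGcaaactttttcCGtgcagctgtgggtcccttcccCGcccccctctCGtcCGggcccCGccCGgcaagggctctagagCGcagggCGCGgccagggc
This stretch holds 17 CpG.

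Col11a2, a type XI chain of cartilage fibrils (chromosome 17, 34039437–34066685), had a promoter peak of 285 at 34039947–34040478. Its window also held 2 far higher peaks, of 959 and 643, that lay over the promoters of H2-Ke6 and of Rxrb and Slc39a7, and a peak of 101 before its start. The strongest signal in the Col11a2 window therefore sat at neighbouring genes. Col2a1, the type II collagen of cartilage (chromosome 15, 97975602–98004695, minus strand), had a promoter peak of 270 at 98003668–98004775 over its start, and peaks of 79.4 and 300 at 1936 and 3028 bp into the gene. A further Col2a1 peak of 64.0 lay upstream.

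The type I genes, which supply the most abundant fibrillar collagen, had moderate promoter peaks and stronger ones elsewhere. Col1a1 (chromosome 11, 94936224–94953042) had 10 peaks, or 37.3 per 100 kb of its window, the highest density of any member. Its higher promoter peak at 94935768–94936668 scored 193 and covered the start, with 1 of 85.6 just inside the gene, whereas a peak at 94932735–94934213, centred at -2750 bp from the start, scored 588, and an intronic peak at 94940954–94942776 scored 622. The central 200 bases of the upstream peak, shown because it exceeds the promoter peak and chosen like the other peak centres away from promoters after scores were seen, hold 4 CpG.
Col1a1, chr11:94933375-94933574, plus strand: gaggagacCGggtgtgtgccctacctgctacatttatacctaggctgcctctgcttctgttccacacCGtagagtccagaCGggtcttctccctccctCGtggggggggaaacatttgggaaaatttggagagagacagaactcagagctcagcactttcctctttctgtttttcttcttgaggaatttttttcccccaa
Col1a2 (chromosome 6, 4504814–4541544) had a promoter peak of 123 at 4504433–4505076 and a higher peak of 198 over an exon 23681 bp into the gene. Col3a1, the type III chain that forms fine fibres with type I (chromosome 1, 45311538–45349706), had no peak at its first start. Its call rested on a peak of 106 beside an internal start 28420 bp from the first, and its highest peak, of 211, lay in an intron 2615 bp into the gene.

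Type V and the remaining fibrillar genes were more varied. Col5a2, the second chain of type V (chromosome 1, 45374321–45503282, minus strand), had a peak of 254 over its start and 2 others that did not exceed 83.8. Col5a1, which nucleates fibrils (chromosome 2, 27886425–28039514), had promoter peaks of 222 and 84.6 at its first start and of 151 at an internal start, within 14 peaks that reached 391 in an intron. Col27a1, a cartilage fibrillar collagen (chromosome 4, 63214004–63334991), had 15 peaks, with 188 and 96.1 in its promoter and 415 in an intron far into the gene. Col24a1 and Col11a1 had the weakest promoter peaks of the class, at 97.3 and 87.9, and Col11a1 had no other peak in its window. Col24a1 had 8 peaks, none above 126.

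Basement membrane genes held the densest LSD1 peaks. The 6 genes had 10.8 peaks per 100 kb from 10 kb upstream to their ends, against 6.32 for fibrillar genes, 3.69 for other collagens and 3.99 for all autosomal genes. This density came from Col4a1 and Col4a2 (20.1 and 19.8 per 100 kb) and in part from Col15a1 (11.3) and Col18a1 (8.84), while Col4a3 and Col4a4 had 2.07 and 4.04. Over all genes the density was 7.22, 6.29 and 3.15 per 100 kb in the 3 length classes, from shortest to longest. Median lengths were 45018 bp for fibrillar, 124772 bp for basement membrane and 104566 bp for other collagens. The densities of the collagen classes are therefore not compared at equal length.

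Col4a1 and Col4a2 encode the chains of the common basement membrane network and are read in opposite directions from a shared promoter on chromosome 8. Their annotated first exons overlap (Col4a1 11198423–11312826, minus strand, and Col4a2 11312805–11449287, plus strand), so no base between them lies outside an exon. Over this start region lay 3 peaks that count for both genes. The peak over the starts at 11312357–11312958 was weak, with a score of 85.3, and it stood between a peak of 248 at 11311259–11312134, in the Col4a1 intron, and a peak of 233 at 11312980–11313925, on the Col4a2 side. The low score lay over the starts themselves and both flanks were higher. A further Col4a1 promoter peak, of 108, lay beside an internal start. The 2 genes together had 47 separate peaks, 7 of them in both windows. The highest were intronic, with 434 at 11382317–11383785 in Col4a2 and 359 at 11292161–11293238 in Col4a1. Between 60 and 82 kb into Col4a2, a stretch chosen after the values were seen, 11 peaks lay close together with scores from 79.2 to 434. The central 200 bases of the start-region peak of 248 are shown in place of bases before a start, since the first exons overlap, and hold 5 CpG.
Col4a1 and Col4a2, chr8:11311597-11311796, plus strand: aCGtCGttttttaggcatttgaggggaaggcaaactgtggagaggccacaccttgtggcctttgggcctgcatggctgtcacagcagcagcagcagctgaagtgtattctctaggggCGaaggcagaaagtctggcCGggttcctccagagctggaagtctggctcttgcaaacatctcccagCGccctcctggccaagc

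Col4a3 and Col4a4, which form the specialised network of kidney, lung and ear, are arranged the same way on chromosome 1 (Col4a4 82448423–82586849, minus strand, and Col4a3 82586921–82722059). Neither had a promoter peak. The peak nearest to their starts scored 77.6 and lay 2618 bp from a Col4a3 start, and the highest in either window was 159. The 71 bases between the genes hold 2 CpG and are shown as an unbound start region, which is not a like region to the peak centre printed for Col4a1 and Col4a2.
Col4a4 and Col4a3, chr1:82586850-82586920, plus strand: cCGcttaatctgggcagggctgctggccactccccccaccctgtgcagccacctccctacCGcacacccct
The pairs thus differed in both the start region and the density of peaks along the genes. Their promoters also differed in CpG ratio. It was 0.77 and 0.78 for Col4a1 and Col4a2, in the high class, where 91.2% of all genes are bound. For Col4a4 and Col4a3 it was 0.46 and 0.45, in the middle class, where 71.6% are. A link between the ratio and these peaks was not tested.

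**Figure D3:**
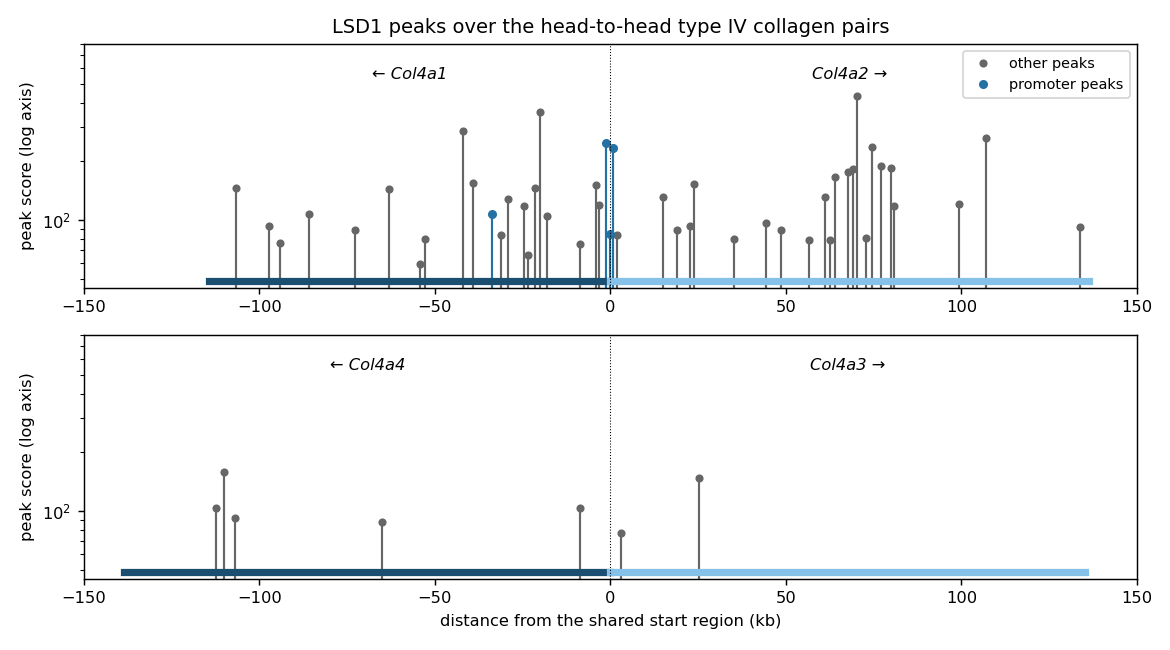
LSD1 peaks of the type IV pairs by distance from their shared start region, with the score on a log axis, promoter peaks in blue and other peaks in grey; bars at the base show the genes. Col4a1 and Col4a2 hold 47 peaks with scores up to 434, and Col4a4 and Col4a3 hold 7 with scores up to 159.

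Col18a1 and Col15a1 encode multiplexins, basement membrane proteoglycans whose ends give rise to the angiogenesis inhibitors endostatin and restin. Col18a1 (chromosome 10, 77052178–77166548, minus strand) had LSD1 at 3 separate start regions. The first start had the highest promoter score of the class, 387 at 77165368–77166525, ending just inside the transcript, and internal starts had peaks of 312 at 77089186–77090126 and 95.7 at 77113359–77114174. Its highest peak, of 412, was intronic at 77098425–77099733. A further 7 peaks scored from 81.1 to 199. The 250 bases before the first start, the best bound of the class, lie outside the peak and hold 11 CpG.
Col18a1, chr10:77166549-77166798, minus strand: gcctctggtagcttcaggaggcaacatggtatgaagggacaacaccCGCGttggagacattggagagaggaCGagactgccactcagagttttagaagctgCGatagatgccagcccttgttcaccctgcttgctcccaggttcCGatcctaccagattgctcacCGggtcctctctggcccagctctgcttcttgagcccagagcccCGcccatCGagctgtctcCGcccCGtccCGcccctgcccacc
Col15a1 (chromosome 4, 47208161–47313167) had a promoter peak of 207 over its first start and 1 of 83.3 beside an internal start. Its strongest peak, at 47293033–47294846, scored 863, far above its promoter, and a neighbour at 47295190–47296320 scored 379. The central 200 bases of the peak of 863 hold 3 CpG.
Col15a1, chr4:47293840-47294039, plus strand: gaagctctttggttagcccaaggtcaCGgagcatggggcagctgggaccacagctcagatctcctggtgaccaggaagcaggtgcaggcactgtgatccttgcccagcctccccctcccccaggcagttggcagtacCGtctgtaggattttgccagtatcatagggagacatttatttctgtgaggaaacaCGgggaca
The 4 promoter scores of bound basement membrane genes lay between 207 and 387, with 1 value shared by Col4a1 and Col4a2.

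Among the other collagens, Col8a2, a short-chain collagen of corneal and vascular basement layers (chromosome 4, 126286793–126314330), had the highest promoter score, 618 at 126300915–126302699. That peak lay beside an internal start, 13737 bp from the first, and the first start had only a peak of 115. Col8a2 intronic peaks of 408 and 456 lay between them and 1 of 138 after them. The CpG ratio was 0.67 at the first start, which placed Col8a2 in the middle class, and 0.21 at the internal start. The centre of the peak of 618 is shown in place of the bases before that start, which it does not cover, and holds 5 CpG.
Col8a2, chr4:126301708-126301907, plus strand: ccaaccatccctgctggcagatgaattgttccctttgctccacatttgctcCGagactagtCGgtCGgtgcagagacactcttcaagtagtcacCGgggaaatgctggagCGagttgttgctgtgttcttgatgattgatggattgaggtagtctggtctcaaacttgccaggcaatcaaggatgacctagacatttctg
Its partner Col8a1 had promoter peaks of 338 and 102, the first before the start. Col10a1, the collagen of growth plate cartilage, had no peak in its window.

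Col6a3, the large chain of type VI collagen whose end is released as endotrophin in fat (chromosome 1, 90765923–90843971, minus strand), carried the highest peak of any collagen window. It lay in an intron at 90834162–90836859, 8461 bp into the gene, with a score of 1062, higher than 98.7% of the list. The central 200 bases of that peak hold 3 CpG.
Col6a3, chr1:90835411-90835610, plus strand: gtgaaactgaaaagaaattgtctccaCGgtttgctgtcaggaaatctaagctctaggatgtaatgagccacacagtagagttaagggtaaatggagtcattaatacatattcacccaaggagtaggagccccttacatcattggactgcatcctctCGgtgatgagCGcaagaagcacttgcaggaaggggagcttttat
The Col6a3 promoter peak at 90843340–90844552 covered the start and scored 490, although its CpG ratio of 0.28 was in the low class. The other 11 peaks of Col6a3 scored from 76.8 to 166. Its partner chains were different. Col6a1 had no promoter peak and a high peak of 553 centred at -7129 bp from its start, and Col6a2 had a promoter peak of 95.8. Col6a5 had promoter peaks of 194 and 85.2 and a peak of 518 centred at -10184 bp. Col6a4 and Col6a6 had no promoter peak, and their windows reached 151 and 265.

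FACIT collagens link fibrils to their surroundings. Col12a1 (chromosome 9, 79598991–79718831, minus strand) led them with promoter peaks of 485 over the start at 79718395–79719328 and 247 at 79717117–79718097, and its 4 other peaks did not exceed 110. Col14a1 had peaks of 201 and 308 on either side of its start, Col16a1 had 241 at its start and 420 in the intron after it, Col9a2 had 229, Col19a1 had 223 and Col20a1 had 79.5. Col9a1, Col9a3 and Col22a1 had none, and Col9a1 had no peak in its window at all.

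Of the transmembrane collagens, Col23a1 had a promoter peak of 223 over its start and 13 peaks in all, up to 299 in an intron. Col13a1, Col17a1 (a hemidesmosome component of skin) and Col25a1 had no promoter peak, and their windows reached 107, 86.3 and 103. Col13a1 had the highest CpG ratio of the members without a promoter peak, and the 250 bases before its start hold 24 CpG, more than those of Col5a3 or Col18a1.
Col13a1, chr10:61979109-61979358, minus strand: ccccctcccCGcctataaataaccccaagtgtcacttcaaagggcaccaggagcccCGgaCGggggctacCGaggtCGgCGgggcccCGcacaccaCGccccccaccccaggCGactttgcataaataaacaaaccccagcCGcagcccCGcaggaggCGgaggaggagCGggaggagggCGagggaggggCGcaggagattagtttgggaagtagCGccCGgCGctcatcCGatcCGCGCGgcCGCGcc
Col28a1 had a promoter peak of 92.3 beside an internal start and an intronic peak of 221, and Col26a1 had 6 peaks outside its promoter, up to 164. The only peak in the Col7a1 window scored 70.8 and that in the Col22a1 window 73.6.

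**Figure D4:**
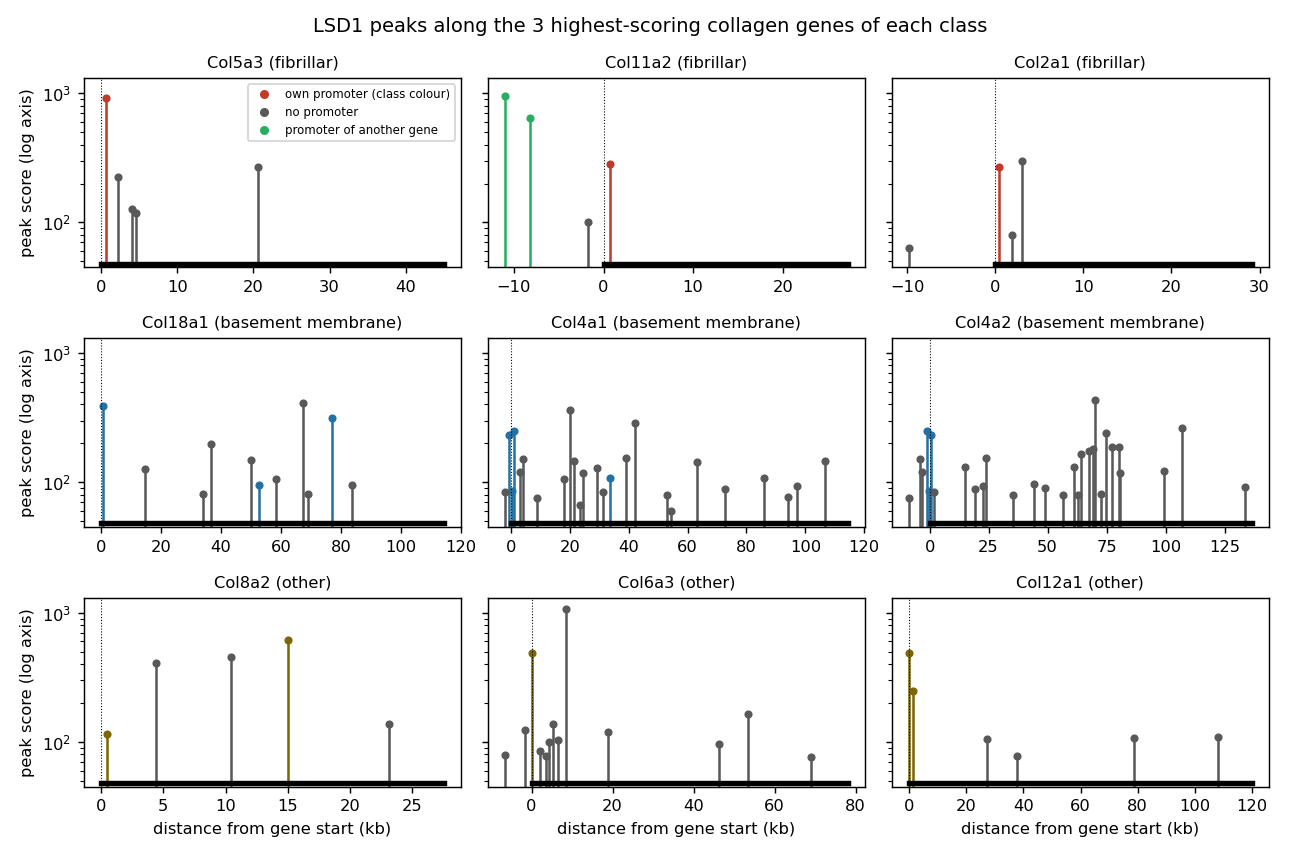
LSD1 peaks along the 3 collagen genes of each class with the highest promoter score, by distance of the midpoint from the gene start; the score is on a log axis and the black bar is the gene. Col6a3 has its highest peak (1062) inside the gene, and in the Col11a2 window the peaks of 959 and 643 lie over promoters of other genes.

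The strongest LSD1 peak of a collagen window was usually away from the collagen promoter. A peak in the window was present for 40 of 42 collagens (95.2%, 84.2 to 98.7%), against 72.8% of all autosomal genes, and long genes offer more room. Among the longest genes 30 of 31 collagens had one, against 89.7% of all genes in that length class, in the middle class 10 of 10, against 76.3%, and in the shortest 0 of 1 (Col10a1), against 52.3%. Collagens were still longer within the longest class, with a median of 130480 bp, against 69989 bp for all its genes. For 31 of the 40 (77.5%) the highest peak lay outside the own promoter, against 35.8% of all genes with a nearby peak. This held by definition for the 12 of them without a promoter peak, and likewise for such genes among all genes. Among promoter-bound genes the count was 19 of 28 (67.9%), against 19.8%. Among promoter-bound genes of the longest class the count was 14 of 21 (66.7%), against 22.0%, with length not matched further within that class. The members' windows held 273 separate peaks, of which 45 touched a member's promoter (median score 193), 3 touched the promoter of another gene alone, and 225 touched none (median score 107). Over all autosomes the median was 234 for peaks over a promoter and 102 for peaks over none. Of the peaks away from own promoters, 187 had the midpoint in an intron of any annotated gene, 19 in intergenic sequence and 10 in a coding exon. The windows are mostly gene body, with 4425 kb beyond 10 kb into the genes, against 378 kb from 1 to 10 kb upstream. The same shares over all autosomal peaks were not computed.

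Peaks were dense in the first kilobases of collagen genes. From 1 to 10 kb into the gene, midpoints lay at 19.2 per 100 kb in fibrillar, 13.0 in basement membrane and 9.91 in other collagens, against 5.12 for all autosomal genes. Within 1 kb of the annotated gene start the densities were 49.975, 49.975 and 26.0, against 28.2. The basement membrane value there rests on only 6 midpoints. The peaks of 85.3 and 233 at the shared Col4a1 and Col4a2 start region were each counted for both genes. Beyond 10 kb they were 3.53 in fibrillar, 9.51 in basement membrane and 2.57 in other collagens, against 2.44 for all genes.

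**Figure D5:**
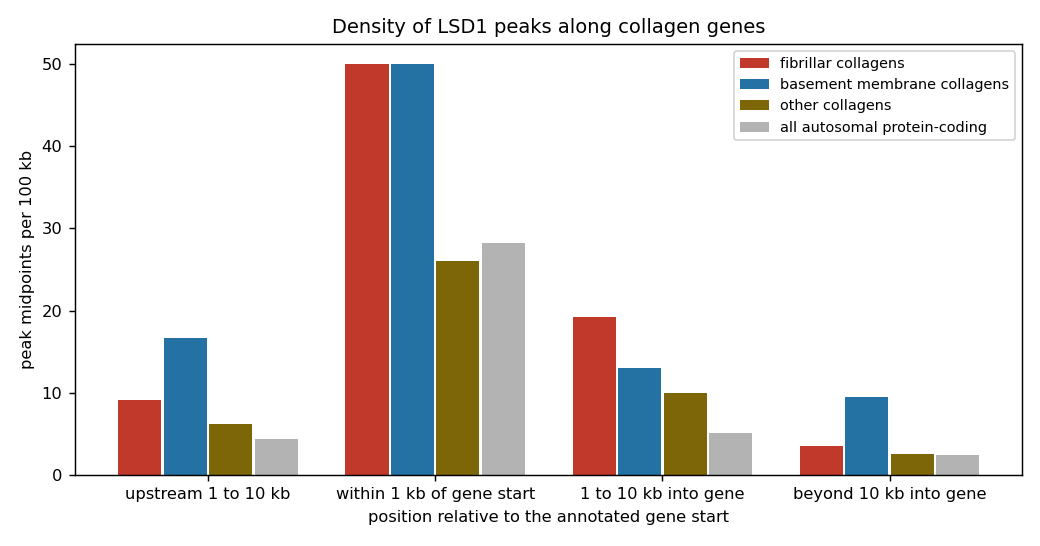
LSD1 peak midpoints per 100 kb, in 4 zones placed by the annotated gene start, for the collagen classes and for all autosomal protein-coding genes. From 1 to 10 kb into the gene the collagen classes have 9.91 to 19.2 midpoints per 100 kb, against 5.12 for all genes.

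Peak centres and starts were searched for short motifs on both strands, as exact letters. Of the 45 collagen promoter peaks, 9 (20%) held the GC box GGGCGG in the central 200 bases, against 39.4% of all autosomal promoter peaks, and 10 (22.2%) held the CCAAT box CCAAT, against 21.1%. The median CpG ratio of these centres was 0.31, against 0.71. In the 250 bases before a start, 37 of 88 collagen starts held a GC box, against 40.4% of all autosomal starts, and 24 (27.3%) held a CCAAT box, against 32.5%. The AP-1 motif (TGACTCA or TGAGTCA) was present in 2 collagen promoter peaks (4.44%, against 2.63%), before 5 collagen starts (5.68%, against 3.68%) and in 16 of the 225 collagen peaks over no promoter (7.11%, against 7.78%). GGAATG, a core bound by TEAD factors, was in 6 (13.3%, against 7.72%), 14 (15.9%, against 11.1%) and 20 (8.89%, against 13.2%) of the same sets, so neither motif differed in 1 direction across the sets. In the peaks over no promoter, 8 (3.56%, against 5.12%) held a GC box and 61 (27.1%, against 23.7%) a CCAAT box. The C/EBP letters (TTGCGCAA, TTGCACAA or TTGTGCAA), a full NFI site and a CTCF core were each in 0 to 2 of the collagen windows of any of these sets. None was found before a collagen start, against 0.889, 0.0211 and 0.436% of all autosomal starts. In collagen promoter peaks the shares were 0, 0 and 2.22%, against 0.518, 0.0140 and 0.476%. Collagen peaks over no promoter had 0.444, 0.444 and 0.889%, against 0.944, 0.0448 and 0.529%. In the printed sequences, Col5a3 holds 2 GC boxes and 1 CCAAT box, Col18a1 3 and 1, and Col6a3 1 CCAAT box. A match is a description of letters and not a bound site.

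The genes that make, export and anchor collagen were read from 6 lists. Of 77 autosomal genes in them, 63 (81.8%) had a promoter peak with a median score of 334, against 58.2% of all autosomal genes, and their median CpG ratio was 0.66, beside 0.46 in collagens. By CpG class, from low to high, 10 of 19, 30 of 35 and 23 of 23 were bound, against 11.8%, 71.6% and 91.2% of all genes. Occupancy of CpG-poor promoters above the share of all genes was thus also seen outside the collagens, though not in every list. Among the fibril partners 5 of 10 such genes were bound (Sparc, Dcn, Fmod, Thbs2 and Postn, named after their values were seen). Among the collagen receptors 0 of 3 such genes were. All 18 modifying enzymes and chaperones were bound, 11 of them in the high CpG class, where 91.2% of all genes are bound, 6 in the middle and 1 in the low class. They were led by Colgalt1, a collagen galactosyltransferase (3100, a score that 33 peaks of the list share), Plod3, a lysyl hydroxylase (664), and P3h2, a prolyl 3-hydroxylase (663). P3h4 and Fkbp10, which sit head to head, share a promoter peak.

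Of the genes for procollagen export and cleavage, 12 of 13 were bound (92.3%, against 58.2% of all autosomal genes). Of the 12, 8 were in the high CpG class, where 91.2% of all genes are bound. In the middle class 3 of 4 were bound (75%, against 71.6% of all genes), and in the low class 1 of 1. The list was led by Sec24d, a coat protein of transport vesicles (741), Mia2, an export receptor (643), and Adamts14, a procollagen proteinase (609). Adamts3, a relative of Adamts14, had none. Crosslinking genes, all in the middle CpG class, were bound in 4 of 6 (66.7%, against 71.6% of all genes in that class), led by the lysyl oxidase relatives Loxl3 (967), Loxl1 (724) and Loxl4 (424), with Loxl2 and the transglutaminase Tgm2 unbound. Fibril partners were bound in 8 of 13 (61.5%, against 58.2% of all autosomal genes), 5 of 10 in the low CpG class and 3 of 3 in the middle, with Fn1 for fibronectin (472), the collagen-binding matrix protein genes Sparc (354) and Comp (319) highest and the proteoglycan genes Lum and Kera unbound.

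Basement membrane partners were bound in 13 of 16 (81.3%, against 58.2%), 3 of 4 in the low CpG class, 8 of 10 in the middle and 2 of 2 in the high class, with the laminin genes Lamc1 (653) and Lama1 (493) and the proteoglycan gene Agrn (570) highest and the epithelial laminin gene Lamb3 unbound. Receptors were bound in 8 of 11 (72.7%, against 58.2%), 0 of 3 in the low CpG class and all 8 above it, with Ddr1, a collagen-activated tyrosine kinase (987), Itgb1 for integrin beta 1 (625) and its collagen-binding partner Itga1 (342) highest, and the integrin gene Itga10 and the inhibitory immune receptor gene Lair1 unbound.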

How the data were processed

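LSD1 was profiled by chromatin immunoprecipitation and sequencing. Per the labels' protocols, reads were mapped to mm10 with Bowtie2, and the submitters' processing notes list MACS 1.41. The deposited list gives each peak a score whose scale, threshold and use of the input are not given in the sources used here. It holds no counts, so depth is unknown. Peak starts were read as BED and printed counting from 1. Genes and coding starts came from GENCODE M21 on GRCm38, the assembly of mm10. The CpG ratio was taken over 1 kb around each start. Analysis used Python 3.11.15 with numpy 2.4.6, pandas 2.3.3 and scipy 1.17.1, and the overlap step was tested on simulated peaks at 400 genes. Members, classes and lists were chosen with earlier results of these data known. Every member is named, with all peaks for the 3 highest promoter scores of a class, and from each list the 3 highest and the first 2 unbound; 1 gene under this rule is not reported here. Bgn, on chromosome X, was left out of the lists, leaving 77 of 78 entries. The 1 library allowed no test. Other promoter widths, overlap rules, score limits, starts and upstream reaches were tried.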

Additional observations from a re-analysis of the deposited data

How the results depend on the processing

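The count of bound collagens stayed within 1.5 times its value of 28 with narrower or wider promoters, midpoints, peaks at or above the median score and annotated gene starts (22 to 30 of 42), and so did the counts of the 3 classes. The full occupancy of fibrillar genes did not hold throughout. It was 8 of 11 with promoters of 500 bp (Col3a1, Col24a1 and Col11a1 lost; 56.0% of all genes bound), 9 with midpoints (56.5%), 8 with peaks at or above the median score (49.6%) and 10 with gene starts alone (54.6%). With peaks in the highest 10% of scores, 4 collagens had a promoter peak (9.52%, against 24.0% of all genes), made up of 1 fibrillar, 0 basement membrane and 3 other genes, and 13 had a peak from upstream to the gene end (31.0%, against 28.9% of all genes), where the excess seen with all peaks (95.2%, against 72.8%) nearly ended. This setting holds fewer peaks by construction. The excess of bound collagens over all genes also ended with promoters of 500 bp (54.8%, against 56.0%) and nearly ended with midpoints (57.1%, against 56.5%). It was small with peaks at or above the median score (52.4%, against 49.6%). The share was 61.9% with gene starts alone, against 54.6%, and 71.4% with promoters of 2.5 kb, against 61.6%. With type IV alone, 2 of 4 basement membrane genes were bound. The count of collagens with a nearby peak was 33 with peaks at or above the median score (78.6%, against 61.6% of all genes). It was 38 to 40 with midpoints, other upstream reaches or the gene body alone (90.5 to 95.2%, against 66.8 to 76.2%). The start lay under the highest peak in 10 of 24 collagens with midpoints (41.7%, against 85.8% of all bound genes), in 10 of 22 with peaks at or above the median score (45.5%, against 86.5%) and under any promoter peak in 15 of 28 (53.6%, against 85.8%), alternatives added after the data were seen. No paired analysis was possible because each group has 1 library and no test was made.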

Other observations

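The collagen genes outside the rule are the type IV pair of chromosome X, Col4a5 (141475385–141689234, plus strand) and Col4a6 (141165403–141474076, minus strand), which are also read in opposite directions from neighbouring starts. Col4a5 had 1 promoter peak with a score of 122, the same peak was the only one in the Col4a6 window, and Col4a6 had no promoter peak. On chromosome X, 133 of 948 protein-coding genes (14.0%) had a promoter peak.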
